A study of Homo sapiens with 3 samples.

Results

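miR-21 was the most abundant miRNA in small RNA from MV4-11 cells, and its locus was described here through 3 rows of the deposited tables: the mature arms hsa-miR-21-5p and hsa-miR-21-3p, 2 of 783 mature names, and the hairpin hsa-mir-21, 1 of 661 primary transcripts. The locus was chosen by the measured level of the 5p arm, so that level is given as a description with no test. MV4-11 is a cultured human leukemia line of the myeloid lineage whose growth is driven by FLT3-ITD, an activating duplication in a receptor tyrosine kinase. The cells had received an empty vector (EV) lentiviral CRISPR-Cas9 construct, carried the genotype label WT, and were grown for 2 weeks before total RNA was taken. There were 3 replicate libraries in 1 group and no treated group, so all comparisons are between features or between libraries. The labels name triplicate cultures of this single cell line, and the spread between libraries covers these cultures only.

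In animal cells a primary transcript is cut by Drosha to a hairpin and then by Dicer to a duplex of a 5p and a 3p strand. One strand, the guide, is loaded into an Argonaute protein and pairs with target mRNAs mainly through its seed, while the other, the passenger, is usually degraded. miR-21-5p is the usual guide of this hairpin. It is known as an oncogenic miRNA that is raised in many tumors, is induced by STAT3 and AP-1, and represses the growth inhibitor PDCD4.

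The sequences that define the locus are shown here, taken from RefSeq on GRCh38.p14 and printed 5′ to 3′. The hairpin lies at chr17:59841266-59841337 on the plus strand and is 72 bases long. In its sequence the capitals mark the 5p arm, which fills bases 8 to 29 and leaves 43 bases after it for the loop and the 3p side. In both mature sequences the capitals mark the seed, bases 2 to 8. miR-590-5p, from chr7:74191213-74191234, is shown because it was the only other mature miRNA of the 2370 in the RefSeq table with the same seed.
hsa-mir-21: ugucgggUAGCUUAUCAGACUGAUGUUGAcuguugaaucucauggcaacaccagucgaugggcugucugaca
hsa-miR-21-5p: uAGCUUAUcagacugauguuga
hsa-miR-590-5p: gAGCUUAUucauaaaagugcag

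Position by position from the 5′ end, the mature sequences of miR-21-5p and miR-590-5p held the same base at 8 of 22 positions, and 7 of these were the seed. miR-21-5p starts with U, as did 56.4% of the 172 higher arms with a RefSeq sequence. In GENCODE release 29 the hairpin lies within VMP1, a gene whose product acts in autophagy. It overlaps an exon of 1 of 17 annotated VMP1 transcripts, a transcript classed as a retained intron, and is separated by 1357 bases from the last annotated coding base of VMP1. The 5p and 3p arms each had a single row, so no reads had to be shared with a second copy.

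Library 1 stood apart from the others. The chi-square statistic of mature counts per degree of freedom was 1860 between replicates 1 and 2, 3435 between 1 and 3, and 351.8 between 2 and 3, so no pair was the same library deposited again. All 6 blood markers were listed, with a summed share of 3.11%, 5.37% and 5.58% of mature counts in replicates 1, 2 and 3. miR-150-5p, found in lymphocytes, was the lowest of them with 7, 11 and 21 counts. Of 8 markers of liver, muscle, neurons, epithelium and stroma, 7 were listed and miR-1-3p, of muscle, had no row. miR-124-3p, a neuronal miRNA, was the highest of the 7 with 5145, 12461 and 19065 counts. Their summed share was 0.0864%, 0.159% and 0.208%. Both sums were lowest in replicate 1, where miR-21-5p was highest. Of the 7, miR-143-3p, of stroma, and miR-122-5p, of liver, went the other way, with 4308, 2755 and 2670 counts and 82, 47 and 45 counts. The part of these markers in the results was not tested. The main means below are therefore also given without replicate 1.

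miR-21-5p, the guide, made up 38.5% of mature counts in replicate 1, from 4892903 counts (Wilson 95% interval 38.5% to 38.6%). The second replicate had 2950274 counts of it, or 26.8% (26.8% to 26.9%). The third had 2361478 counts, or 20.2% (20.19% to 20.24%). The intervals cover counting error only, and they lay far apart, with replicate 1 the highest and replicate 3 the lowest. The mean share was 28.5% ± 9.28 (SD, n = 3), and 23.5% without replicate 1. Replicate 1 exceeded replicate 3 by 1.91-fold in share of all mature counts, and by 2.48-fold when counts were set against the mature counts of all other miRNAs.

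Between miRNAs, levels were compared per length, as FPKM. miR-21-5p had 18349809, 12778382 and 9623727 FPKM in replicates 1, 2 and 3. miR-148a-3p, a miRNA that represses DNMT1 and ranked just below it by mean level, had a mean of 2633077 ± 947897 FPKM (SD, n = 3). miR-21-5p lay above it in each of 3 libraries, by 4.99-fold to 5.33-fold, a margin that varied little although both levels did. miR-148a-3p was the runner-up in replicates 1 and 2 but ranked 6 in replicate 3, where miR-20a-5p came next and miR-21-5p was 4.20-fold above it. By mean level let-7f-5p, of the differentiation-linked let-7 family, followed with 2016034 ± 246734 FPKM (SD, n = 3).

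The hairpin row followed its guide. hsa-mir-21 held 4901186, 2958322 and 2370297 counts, which was 38.5%, 26.8% and 20.2% of all primary transcript counts, and it ranked 1 of 661. Both tables count the same reads, so this is not a second measurement.

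miR-21-3p, the passenger, did not follow the guide in share of mature counts. It had 7684, 6939 and 7477 counts in replicates 1, 2 and 3, which was 605 per 1000000 mature counts (Wilson 95% interval 592 to 619), 631 (617 to 646) and 640 (626 to 655). Its share was thus nearly level over libraries in which that of the guide differed by 1.91-fold, with only the intervals of replicates 1 and 3 clear of each other. The mean was 626 ± 18.1 per 1000000 (SD, n = 3), and 636 without replicate 1. The coefficient of variation of this share was 2.89% for the 3p arm against 32.5% for the 5p arm. Among the 163 mature miRNAs with at least 1000 counts in every library, the median was 29.1% and 6 varied less than miR-21-3p.

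That near-level share depends on the denominator. Set against the mature counts of all other miRNAs, miR-21-3p stood at 986, 864 and 803 per 1000000 in replicates 1, 2 and 3, so replicate 3 was now below replicate 1. The log2 ratio of replicate 3 to replicate 1 was 0.081 per all mature counts, but -0.30 without miR-21 in the total, -0.48 with median-of-ratios scaling and -0.56 with TMM scaling. For miR-21-5p the same log2 ratio was -0.93, -1.31, -1.49 and -1.57 under these scalings and kept its sign.

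**Figure D1:**
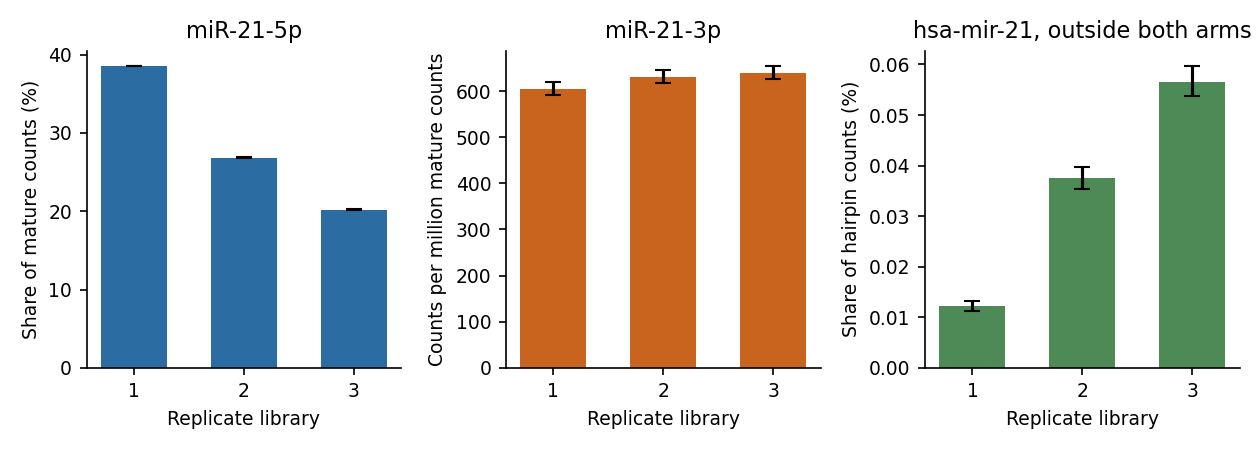
Bars give, for each replicate library, the share of mature counts taken by miR-21-5p (left, %), counts of miR-21-3p per 1000000 mature counts (middle), and the share of hsa-mir-21 hairpin counts that lay outside both arms (right, %), with Wilson 95% intervals of counting error as black bars. The 5p share was 38.5%, 26.8% and 20.2% in replicates 1, 2 and 3, the 3p level stayed between 605 and 640, and the outside share was lowest in replicate 1.

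Though a passenger strand, miR-21-3p was not a rare miRNA. Its mean level was 31270 ± 903 FPKM (SD, n = 3), rank 91 of 783, against a median of 269.5 FPKM over all mature miRNAs. It ranked 11 among the lower arms of 195 arm pairs, whose median was 291.9 FPKM. The highest of these lower arms was miR-142-5p, of a hairpin found across blood cells, with 276995 ± 104128 FPKM (SD, n = 3). In 132 of the 195 pairs even the higher arm lay below miR-21-3p. The locus was chosen for its high 5p level, so these ranks are a description.

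For replicates 1, 2 and 3 the ratio of guide to passenger counts was 637, 425 and 316. The Wilson 95% intervals of the passenger share put these ratios at 623 to 651, 415 to 435 and 309 to 323. The libraries did not overlap within counting error, and the order was that of the 5p share. miR-21-3p made up 0.157%, 0.235% and 0.316% of the reads of both arms. On the log2 scale, with 1 count added to each arm, the ratio was 9.31, 8.73 and 8.30, with a mean of 8.78 ± 0.51 (SD, n = 3), and 8.52 without replicate 1. This ratio needs no library total, so the choice of scaling does not move it.

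Over all 195 pairs with at least 1 count of each arm in every library, the median absolute log2 ratio was 3.14 and the median SD between libraries was 0.51. The miR-21 pair was thus strongly one-sided, with an SD near that median. The median also covers pairs with few counts, whose SD includes more counting error, so it is not a like-for-like comparison. It ranked 5 toward 5p and 9 in absolute size. In 83 pairs, 42.6%, the 5p arm was above the 3p arm in all 3 libraries, and miR-21 was one of them. Since the 5p level chose the locus, its place in this order is a description.

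The neighbours above miR-21 were the pairs of let-7i at a mean log2 ratio of 9.13 ± 0.50, miR-155 at 9.62 ± 1.16, and miR-20a, of the growth-promoting miR-17 to miR-92a cluster, at 9.85 ± 0.11 (SD, n = 3). Below it came miR-191 at 8.43 ± 0.35, miR-30d at 8.14 ± 0.32 and miR-345 at 7.57 ± 0.34 (SD, n = 3). The gaps from miR-21 to let-7i and to miR-191 were smaller than the SD of miR-21, so its place among them is not resolved. The lower arm of miR-21 had the most counts in this company. The locus was chosen for the high level of its guide, and these neighbours were picked for a similar arm ratio. The depth of its lower arm follows largely from that choice and is given as a description. miR-21-3p held at least 6939 counts in every library. The lower arms of miR-30d, miR-191 and let-7i held at least 1540, 1059 and 540. Those of miR-20a, miR-155 and miR-345 held as few as 136, 134 and 71.

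**Figure D2:**
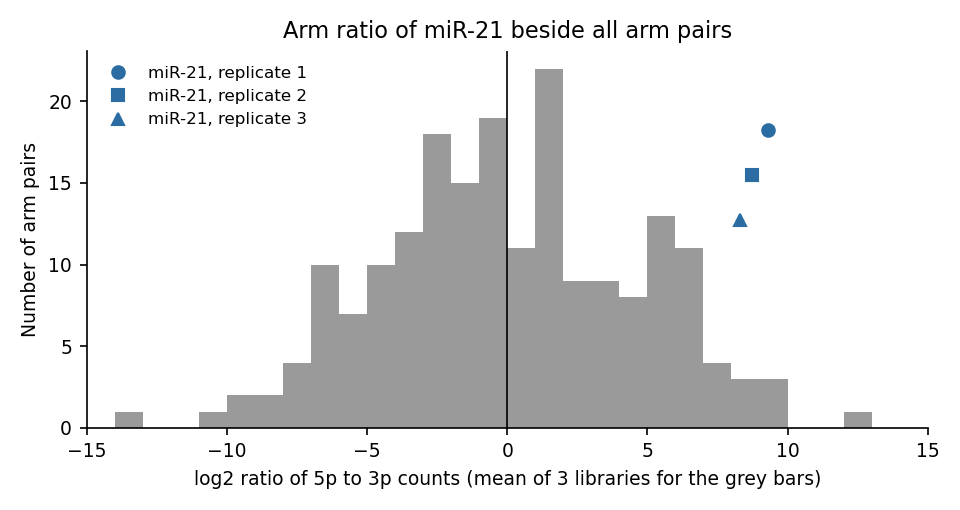
Grey bars count the 195 arm pairs by their mean log2 ratio of 5p to 3p counts over 3 libraries (positive values mean more 5p), and the blue symbols give miR-21 in each library, at heights chosen only to keep them apart. The miR-21 symbols lie between 8.30 and 9.31, near the right end of a range that runs from -13.34 to 12.52.

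The change of the arm ratio between libraries was set beside the 82 pairs that had at least 100 counts of each arm in every library. From replicate 1 to replicate 3 the miR-21 ratio differed by -1.01 on the log2 scale. The median difference of the 82 pairs was 0.018, with a range from -3.01 to 2.73, and the median absolute difference was 0.81. A difference at least as large in either direction was found for 34 pairs, and one at least as far toward 3p for 14. The order in which replicate 1 had the highest ratio and replicate 3 the lowest was shared by 26 of the 82, or 31.7%, so the shift of miR-21 was common among pairs of adequate depth.

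Nearly all reads of the hairpin came from its arms. The reads counted on hsa-mir-21 but on neither mature arm numbered 599 in replicate 1, 1109 in replicate 2 and 1342 in replicate 3. As a share of hairpin counts they came to 0.0122%, 0.0375% and 0.0566%, with Wilson 95% intervals of 0.0113% to 0.0132%, 0.0353% to 0.0398% and 0.0537% to 0.0597%. The intervals did not overlap, with replicate 1 the lowest. Since the 5p reads dominate the denominator, the same reads were also set against the passenger, where they came to 7.80%, 16.0% and 17.9% of the miR-21-3p counts. Per 1000000 primary transcript counts they were 47.1, 101 and 115, so replicate 1 was the lowest by this measure too.

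The mean share outside the arms, 0.0354% ± 0.0223 (SD, n = 3), was 0.0471% without replicate 1. Among 183 hairpins of a single copy with both arms listed, hsa-mir-21 ranked 86 from the lowest, against a median of 0.0462%. Among the 92 of these with at least 1000 counts in every library it ranked 39, against a median of 0.0557%. By this measure hsa-mir-21 was an ordinary hairpin. The hairpins beside it were hsa-mir-30e at 0.0352% ± 0.00240 and hsa-mir-151a at 0.0331% ± 0.0366 below, and hsa-mir-500a at 0.0379% ± 0.0356 and hsa-let-7d at 0.0391% ± 0.00579 above (SD, n = 3). A share lowest in replicate 1 and highest in replicate 3 was found for 15 of the 92, or 16.3%. In 10 of the 183 hairpins the arms held more counts than the hairpin in at least 1 library, so the tables were not counted by rules that nest exactly, and how a read that overhangs an arm was assigned is not given in the sources used here.

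The part of each library that was not miR-21 was smallest in replicate 1. Mature counts totalled 12694823, 10991953 and 11682129 in replicates 1, 2 and 3. Replicate 1 was the deepest, by 1702870 counts over replicate 2, yet without the arms of miR-21 it held 7794236 counts, against 8034740 in replicate 2 and 9313174 in replicate 3. The deepest library was therefore the shallowest for the rest of the miRNAs. At least 10 counts were found for 662, 711 and 733 mature names in replicates 1, 2 and 3, and at least 1000 for 174, 182 and 192. The part of miR-21 in these numbers was not tested.

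**Figure D3:**
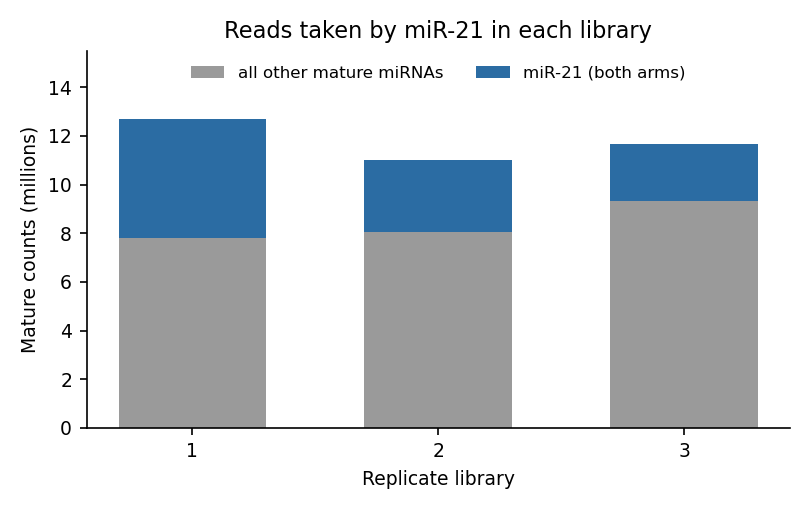
Stacked bars give mature counts in units of 1000000 for each replicate library, with all other mature miRNAs in grey and both arms of miR-21 in blue on top. The total was highest in replicate 1 at 12694823 counts, but the grey part was lowest there at 7794236.

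Leaving miR-21 out of the total raised the share of every other miRNA by a factor of 1.63, 1.37 and 1.25 in replicates 1, 2 and 3. Since these factors differ, the choice of total also changes comparisons between libraries. Over the 161 other miRNAs with at least 1000 counts in every library, the median log2 ratio per all mature counts was 0.42 for replicate 2 over 1 and 0.54 for replicate 3 over 1. Without miR-21 in the total the medians were 0.17 and 0.16. The median log2 ratio of replicate 3 to replicate 2 was 0.13 with miR-21 and 0.0012 without it. By construction the removal subtracts 0.25, 0.38 and 0.13 from these ratios, the log2 ratios of the share that miR-21 leaves to the others. For replicates 2 and 3 this took away nearly all of the shift. The medians against replicate 1 stayed above 0 on this total, but their order-statistic intervals included 0. These intervals were -0.0086 to 0.41 for replicate 2 over 1 and -0.0065 to 0.50 for replicate 3 over 1. A remaining shift against replicate 1 was therefore not resolved. The medians against replicate 1 were below 0 with TMM scaling (-0.10 for replicate 2 and -0.10 for replicate 3) and with median-of-ratios scaling (-0.056 and -0.024).

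The order of libraries for single miRNAs moved with the total as well. Per all mature counts, 114 of the 161 (70.8%) were lowest in replicate 1 and 36 (22.4%) were highest there. Without miR-21 in the total, 86 (53.4%) were lowest and 65 (40.4%) were highest in replicate 1. The median coefficient of variation of these miRNAs was 29.1% with miR-21 in the total and 21.7% without, while that of miR-21-3p was 2.89% and 10.5%. Without replicate 1 the median was 9.04% with miR-21 in the total and 7.08% without.

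Diversity of the libraries was measured by the effective number of miRNAs, the inverse of the sum of squared shares, which is the number of equally abundant miRNAs that would give the same concentration. It was 6.02, 11.4 and 16.9 in replicates 1, 2 and 3, with a mean of 11.4 ± 5.43 (SD, n = 3). Without miR-21 it was 21.6, 34.5 and 34.6, with a mean of 30.3 ± 7.47 (SD, n = 3). Leaving out replicate 1 gave means of 14.2 and 34.6. Replicates 2 and 3 differed with miR-21 and were nearly equal without it, and replicate 1 was the lowest either way. The 10 miRNAs next in mean FPKM made up 35.4%, 33.6% and 35.6% of all mature counts, a level share, but 57.7%, 45.9% and 44.7% of the counts without miR-21. miR-148a-3p alone made up 12.6%, 6.88% and 4.81% of the counts without miR-21, so replicate 1 differed from the others in this miRNA as well.

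The seed of miR-21-5p was held by 2 listed miRNAs, itself and miR-590-5p, among 679 listed names matched to a RefSeq sequence. miR-590-5p, made from an intron of EIF4H, had 70, 155 and 189 counts in replicates 1, 2 and 3. That was 5.51 per 1000000 mature counts (Wilson 95% interval 4.36 to 6.97), 14.1 (12.05 to 16.5) and 16.2 (14.0 to 18.7), so the library with the most miR-21-5p had the least miR-590-5p. In FPKM miR-21-5p lay above it by 12495-fold to 69899-fold. Among matched miRNAs, nearly every read with this seed was therefore miR-21-5p, with miR-590-5p at 0.00143% to 0.00800% of the pair. Matched names held 93.0% of mature counts in the library where they held least, and unmatched names were not searched.

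When matched miRNAs were summed by seed, the miR-21 group was first in each library with 38.5%, 26.8% and 20.2% of mature counts. The let-7 seed, with 9 listed members, came next with 12.2%, 10.5% and 12.4%. The lead of the miR-21 seed over the let-7 seed was thus smaller than its lead over any single miRNA, and it rested on 1 abundant sequence where the let-7 group rested on several.

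The miRNAs whose levels over the 3 libraries were most like those of miR-21-5p were found by the Euclidean distance between log2 counts per 1000000 mature counts, each centred on its mean over the libraries. With 3 libraries this is a description, and it does not depend on the scaling of the libraries, which cancels in the difference. Over the 162 other miRNAs with at least 1000 counts the median distance to miR-21-5p was 1.05. The nearest were miR-4497 at 0.061, miR-148a-3p at 0.072, miR-6842-3p at 0.077, miR-146b-5p at 0.11 and miR-192-5p at 0.11. miR-146b-5p restrains inflammatory signalling and miR-192-5p is linked to p53. By mean FPKM these 5 ranked from 2 for miR-148a-3p to 149 for miR-6842-3p, and less abundant miRNAs were not searched. In all, 22 of the 163 miRNAs, or 13.5%, had their highest share in replicate 1 and their lowest in replicate 3. Shares here are per all mature counts, and miR-21-5p was 1 of the 22.

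Its own passenger was not among them. miR-21-3p was at a distance of 0.72 from miR-21-5p and ranked 48 of 162. The nearest to miR-21-3p were let-7f-2-3p, miR-30d-3p and miR-424-3p at 0.043, 0.044 and 0.046, against a median of 0.58. In the miR-30d pair, as in that of miR-21, the 5p arm was the higher one, while in the miR-424 pair the 3p arm was higher in all 3 libraries, with 2333 counts against 602 in replicate 1.

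**Figure D4:**
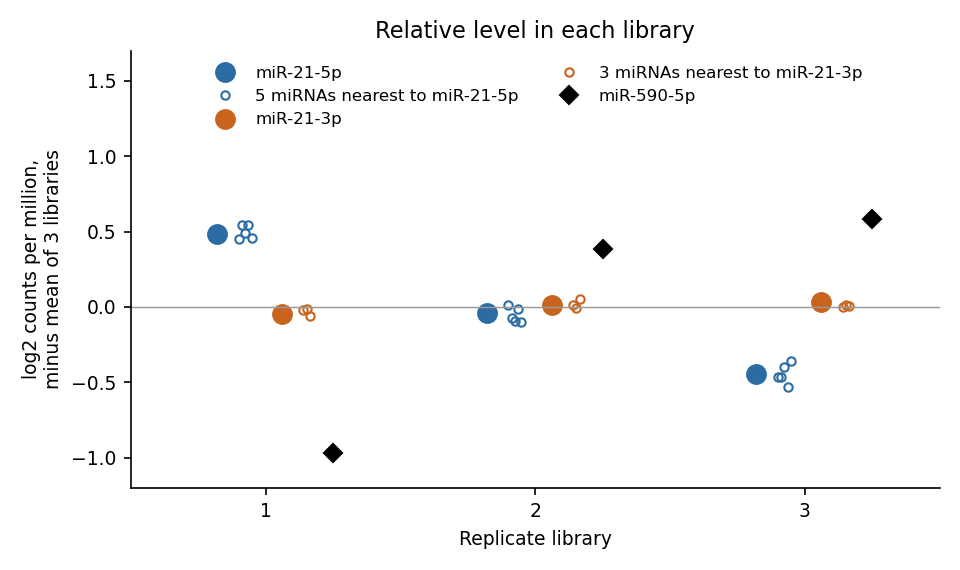
Points give log2 counts per 1000000 mature counts in each replicate library minus the mean of the 3 libraries, for miR-21-5p and miR-21-3p (large filled circles), the miRNAs nearest to each (small open circles) and miR-590-5p (black diamonds). miR-21-5p and its 5 nearest are highest in replicate 1 and lowest in replicate 3, miR-21-3p lies near 0 in all 3, and miR-590-5p is lowest in replicate 1.

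miR-21 is one of several miRNAs linked to inflammatory signalling, and a fixed list of 12 others with such a link was set beside it. The list shares members with the blood markers, so its levels are not specific to inflammation. Of the 12, 11 were listed and miR-125b-5p had no row. The 11 had a median of 230877 FPKM against 269.5 FPKM over all mature miRNAs, with levels from 376 FPKM for miR-147b to 1351099 ± 496682 FPKM (SD, n = 3) for miR-146b-5p. Per all mature counts, miR-146b-5p was the only one of the 11 with its highest share in replicate 1 and its lowest in replicate 3. miR-21-5p had the same order, and 1 of 11 is no more than the 13.5% found over the 163 miRNAs. The order of libraries moved with the total, so neither count need hold without miR-21 in it. Counts of miR-146b-5p were 501026, 295824 and 219129 in replicates 1, 2 and 3, and miR-21-5p was at least 9.77-fold above it in FPKM in every library. miR-146a-5p, which has the same known role but comes from another locus, had 4640, 7251 and 8610 counts and was lowest in replicate 1. miR-155-5p, a driver of myeloid growth, had 267606, 280231 and 304911 counts and a mean of 1100895 ± 124530 FPKM (SD, n = 3). The summed share of the 11 was 8.36%, 9.16% and 8.97% of mature counts, so miR-21-5p alone exceeded all of them together in each library.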

How the data were processed

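Small RNA libraries from 3 cultures were prepared by the NEB Illumina protocol and sequenced on an Illumina HiSeq instrument. Per the labels, the submitters' processing notes list Novoalign 2.08.03 and the builds hg19 and mm10. Aligner settings and read trimming are not given in the sources used here. The authors counted aligned reads over miRBase version 21 mature miRNAs and primary transcripts. Both deposited tables hold whole read counts per feature and library, and FPKM that the authors computed from them. Counts divided by the deposited FPKM gave a length of 21 for miR-21-5p, 20 for miR-21-3p and 71 for the hairpin, 1 base under the 22 and 72 of the RefSeq sequences, and a total above the listed counts by 0.0205% to 0.0229%. Every listed row reached 10 counts in at least 1 library. Ligation and PCR favour some sequences, and any use of molecular identifiers is not given in the sources used here. Counts can therefore not be taken as strict molar amounts, and intervals cover counting error only.

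The 851 mature rows were summed to 783 names. Shares were computed on counts with Wilson 95% intervals, and levels between miRNAs on FPKM. Reads outside the arms were hairpin counts minus both arms. TMM factors came from edgeR 4.0.16 in R 4.3.3, and other values from Python 3.11.15 with numpy 2.4.6, scipy 1.17.1, pandas 2.3.3 and matplotlib 3.10.9. No hypothesis test was made, since there is 1 group and the locus was chosen by its level. The composition step was checked on simulated data with a known dominant share. There the other miRNAs kept equal levels between libraries, apart from a set changed on purpose. The real libraries differed more, so this checked the calculation only. The members, lists and rules were chosen with earlier results of these data known. miRNAs named with values were both arms and the hairpin, sharers of the seed, the next in abundance, the neighbours in arm ratio and in outside share, the nearest in pattern, and the fixed lists of inflammatory miRNAs and tissue markers. A few others from the same rankings, the highest lower arm and members singled out within a list, were named after their values were seen. Seeds were compared for miR-21-5p. Coordinates are those of GRCh38 and were not combined with the submitters' builds.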

Additional observations from a re-analysis of the deposited data

How the results depend on the processing

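Of 86 values recomputed under an alternative, 61 moved by less than the spread that applied. That spread was the SD between libraries for means, and otherwise the distance from the midpoint of an interval to either end. The interval was that of counting error for the ratios of each arm between replicates. For medians over miRNAs it was the order-statistic interval. For the place of hsa-mir-21 among hairpins it was the Wilson interval of a share of hairpins. Of the 86, 33 left out a replicate, and 29 of these were among the 61. For a mean over 3 libraries, leaving 1 out always moves it by less than the SD, so those values are no check of stability. The mean share of miR-21-5p ran from 23.5% to 32.7% with one replicate left out, and its mean level from 11201054 to 15564096 FPKM. The miR-21-3p mean was 626 per 1000000 and 883 with mature counts without miR-21-5p as the total, which follows from the smaller total. For the median log2 ratios of other miRNAs per all mature counts, TMM gave -0.10, -0.10 and 0.0011 for replicates 2 over 1, 3 over 1 and 3 over 2, median of ratios gave -0.056, -0.024 and 0.037, and leaving the 10 most abundant miRNAs out of the total gave -0.061, -0.15 and -0.029. TMM and median of ratios are built to centre such ratios, and for the total without the 10 most abundant miRNAs the cause was not tested. Their median coefficient of variation was 22.3%, 21.7% and 21.3% under the same settings, and with one replicate left out it ranged from 9.04% to 36.8%, or from 7.08% to 27.7% without miR-21 in the total. The lowest values came without replicate 1 and the highest without replicate 2. With the exponential of the Shannon entropy the effective number was 32.3, and 52.9 without miR-21, since that measure weighs rare miRNAs more. The scaling of the 3p and 5p ratios between replicates is given with those results, where that of the 3p arm changed sign. The background of hairpins with at least 1000 counts, the seed group and the totals without both arms were added after the data were seen. No paired analysis was possible because there is 1 group. Depth limits miR-150-5p most among the miRNAs named with counts, at 7 in replicate 1, and miR-590-5p at 70.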

Other observations

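Arm pairs with larger differences between libraries than miR-21 were looked at after the values were seen. The largest toward 3p was that of miR-532, from an intron of CLCN5, with 28456, 14216 and 14489 counts of 5p and 275, 795 and 1130 of 3p in replicates 1, 2 and 3, a log2 difference of -3.01 from replicate 1 to replicate 3. In that pair the counts of both arms differed, in opposite directions. For miR-21 the 3p counts lay between 6939 and 7684, and in raw counts the 5p arm made the difference. With TMM scaling both arms were lower in replicate 3, at log2 ratios to replicate 1 of -0.56 for 3p and -1.57 for 5p. miR-155 differed by -2.13, with 134, 519 and 672 counts of 3p and 267606, 280231 and 304911 of 5p. The largest toward 5p was that of miR-374a, at 2.73, with 2576, 13171 and 21338 counts of 5p and 3532, 3767 and 4423 of 3p.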
